A study of Mus musculus with 2 samples.

Results

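The genes described here encode the type IV collagen chains, laminin chains and nidogens of basement membranes, together with perlecan. They were chosen by gene name as Col4a1, Col4a2, Lama2, Lama4, Lamb1, Lamb2, Lamc1, Nid1, Nid2 and Hspg2, and all 10 were found among the 44291 genes of the series. Their mRNA was measured by RNA-seq in primary FAPs (fibro-adipogenic progenitors, mesenchymal cells of muscle able to become adipocytes or fibroblasts), sorted from mouse hind limb muscle and grown in culture. One culture received platelet-rich plasma (PRP), a platelet concentrate of blood, and the control culture received vehicle, with 1 library per group. Both cultures had the WT genotype and were kept in adipogenic induction medium, which was DMEM with 20% FBS to which insulin at 10 µg/ml, IBMX at 0.5 mM and dexamethasone at 0.25 µM had been added. The agent is PRP in the labels, while the study's text speaks of exosomes purified from the PRP of young human donors. The study used young adult C57BL/6 mice, and how many of them stood behind each library was not given in the sources used here.

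A basement membrane is a thin sheet of matrix that surrounds muscle fibres, fat cells and blood vessels. Laminins are trimers of an alpha, a beta and a gamma chain that polymerise on the cell surface, type IV collagen forms a second network, and nidogens and perlecan tie these networks together. In skeletal muscle, much of the type IV collagen and part of the laminin is known to come from the mesenchymal cells between the fibres, which include FAPs.

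Levels are FPKM, reads scaled to exon length and to the library's assigned reads, as deposited by the authors. The fold change is the log2 of PRP FPKM + 1 minus the log2 of control FPKM + 1, and this scale understates the change of weakly expressed genes. A single library per group meant that no test was possible, so the intervals given are 95% counting intervals that compare the libraries and not the treatments. They cover counting error only, and take no account of PCR duplicates or of the spread between cultures. Because whole cultures were sequenced, fewer cells of a type and less RNA per cell cannot be told apart.

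The study named let-7f-5p and miR-16-5p as microRNAs carried by the exosomes, and miR-29a-3p belongs to a family known for targeting collagen mRNAs. Their mouse mature sequences, from RefSeq on GRCm38.p6, are shown because their seeds (bases 2 to 8, in capitals) were searched for in the 3′UTRs of the 10 genes. No microRNA level was measured in these libraries, and a match is a description of the sequence only. The seed matches searched were CTACCTC for let-7f-5p, TGCTGCT for miR-16-5p and TGGTGCT for miR-29a-3p, on the sense strand of the longest annotated 3′UTR of a protein-coding transcript.
mmu-let-7f-5p: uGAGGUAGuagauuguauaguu
mmu-miR-16-5p: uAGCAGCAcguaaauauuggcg
mmu-miR-29a-3p: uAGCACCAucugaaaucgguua

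The search found 7 matches in 4 of the 10 genes. They are printed with 8 bases on each side and the match in capitals, so that the placement of each site can be compared between collagen, laminin and nidogen transcripts (GENCODE M21, GRCm38).
Col4a1 site for miR-29a-3p, chr8:11199754-11199776, minus strand: tcacaacaTGGTGCTactccccc
Col4a2 first site for miR-29a-3p, chr8:11448351-11448373, plus strand: ggccacgtTGGTGCTtatccttc
Col4a2 second site for miR-29a-3p, chr8:11448522-11448544, plus strand: acccagctTGGTGCTtactctta
Lamc1 site for miR-29a-3p, chr1:153220061-153220083, minus strand: tgacacacTGGTGCTattaatta
Lamc1 site for miR-16-5p, chr1:153221362-153221384, minus strand: cacttctcTGCTGCTctccatca
Nid1 first site for let-7f-5p, chr13:13511839-13511861, plus strand: agagccccCTACCTCcttttctt
Nid1 second site for let-7f-5p, chr13:13511889-13511911, plus strand: cctatctcCTACCTCcacctcga

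Both type IV collagen transcripts carried the miR-29a match close to the stop codon, starting 33 bases after it in Col4a1 and 43 and 214 bases after it in Col4a2. The Lamc1 match for miR-29a lay further away, at 1398 bases. The Col4a1 site and this Lamc1 site overlapped coding sequence of another annotated transcript of the same gene. A miR-29a match was present in 15.4% of the 10292 expressed genes with an annotated 3′UTR. The single miR-16 match, in Lamc1 at 97 bases, was of a kind found in 24.6% of those genes. The let-7f matches in Nid1, at 1780 and 1830 bases, were of a kind found in 9.86% of them. The other 6 genes (Lama2, Lama4, Lamb1, Lamb2, Nid2 and Hspg2) held none of the 3 matches. Their 3′UTRs had 110 bases in Lamb2, 151 in Lamb1, 155 in Lama4, 210 in Lama2, 591 in Nid2 and 966 in Hspg2. All were below the median of 1155 bases over the expressed genes. Col4a2, with 971 bases and 2 miR-29a matches, was below that median as well.

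**Figure D1:**
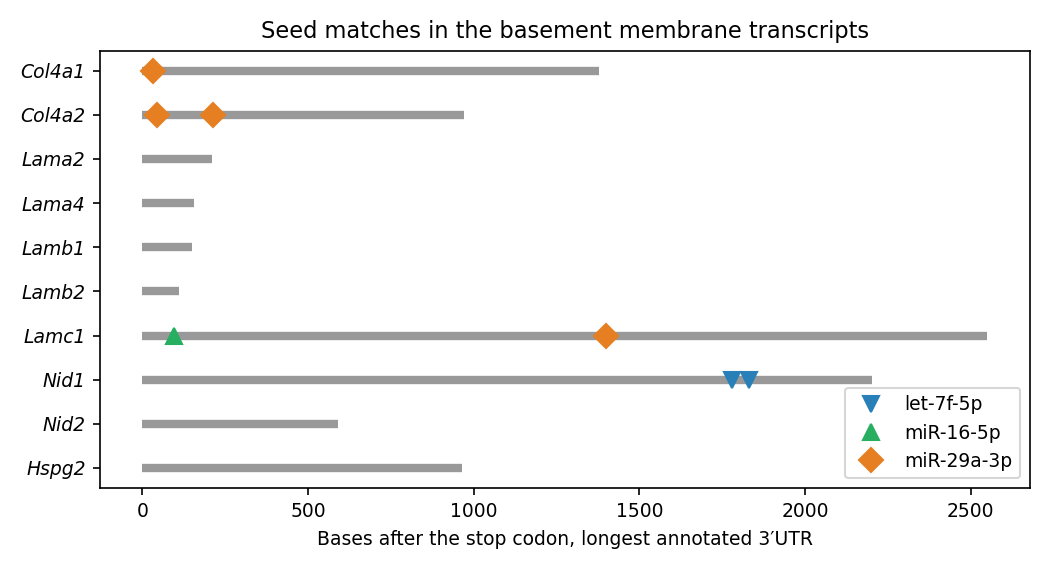
Seed matches along the longest annotated 3′UTR of each of the 10 genes. The horizontal axis gives bases after the stop codon, each grey bar is a 3′UTR, and each marker is the start of a 7-base match for let-7f-5p (blue), miR-16-5p (green) or miR-29a-3p (orange). The miR-29a markers sit within the first 214 bases in Col4a1 and Col4a2 and at 1398 bases in Lamc1, and 6 of the bars carry no marker.

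The depth behind these values was recovered from the FPKM and the exon lengths and came to 40120843 assigned reads with PRP and 34139741 in the control. Genes whose FPKM averaged at least 1 over both libraries are called expressed here, and over these 13401 genes the median log2 fold change was 0.01 and 49.1% were lower in the PRP library. All 10 basement membrane genes passed this limit, with between 492 reads (Nid2, control) and 119587 reads (Col4a1, control).

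Most of the basement membrane genes were lower in the PRP library, by modest amounts. Of the 10 genes, 8 were lower and 2, Nid1 and Lamb1, were higher, and the median log2 fold change was -0.29. The summed FPKM of the 10 genes was 894 with PRP and 1156 in the control, a ratio of 0.773, and it made up 0.261% and 0.341% of the summed FPKM of all genes. None of the 10 was past 2-fold, a size reached by 0.828% of the expressed genes in the lower and 2.00% in the higher direction. Col4a2 was the only one at least 1.5-fold lower, which 4.57% of the expressed genes were, and none was at least 1.5-fold higher, which 6.15% were. The counting interval lay wholly below 1 for 7 of the 10 genes and wholly above 1 for 2. Over the 12761 expressed genes whose reads came out as whole numbers in both libraries, it lay below 1 for 26.0% and above 1 for 26.4%. A counting interval narrows as the reads of a gene increase. The shares over all expressed genes were not matched for reads, so they are not a like comparison for the 10 genes.

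The order of the levels was the same in both libraries, from Col4a1 through Col4a2, Lamc1, Nid1, Lamb2, Lamb1, Hspg2, Lama2 and Lama4 to Nid2. None of the 9 pairs of neighbours in this order had overlapping counting intervals in either library. These intervals do not cover the choice of exon length, on which an order between genes also depends. By reads alone, Lamb1 lay above Lamb2, with 9839 against 7318 reads with PRP and 7979 against 7822 in the control. Col4a1 stood 154-fold above Nid2 with PRP and 168-fold above it in the control.

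**Figure D2:**
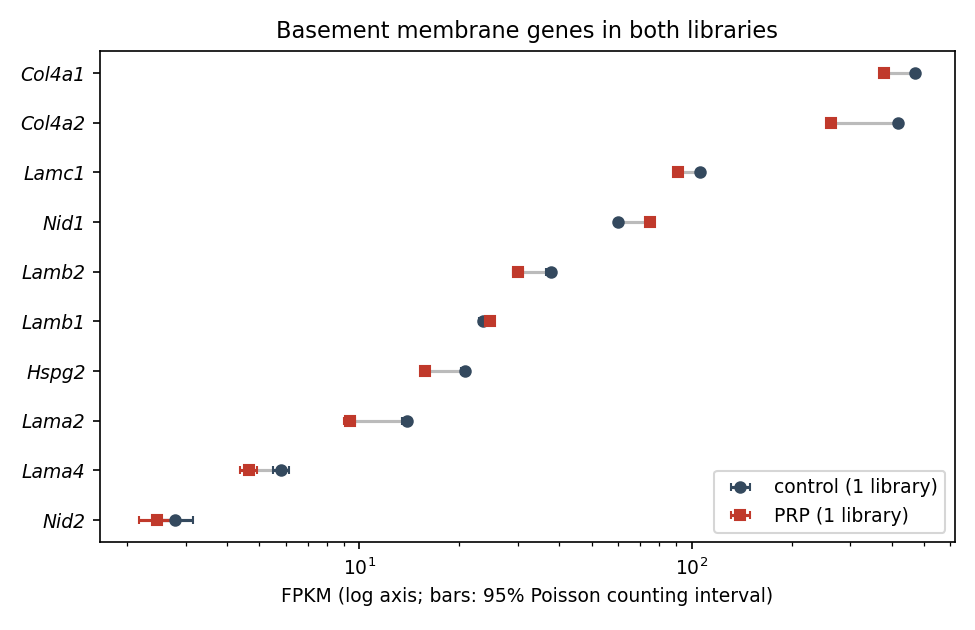
Level of each basement membrane gene in the control library (dark circles) and the PRP library (red squares), in FPKM on a log axis, 1 library per group. The bars are 95% Poisson counting intervals, many of them narrower than the markers. The red square lies to the left of the dark circle for all genes but Nid1 and Lamb1.

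Col4a1 and Col4a2 encode the chains of the type IV collagen found in nearly all basement membranes, in which they assemble with each other. Col4a1 (ENSMUSG00000031502, chr8:11198423-11312826, minus strand) had 379.7 FPKM with PRP (377 to 383) and 469 FPKM in the control (466 to 473). Its level was thus lower with PRP, at a ratio of 0.809 (0.7998 to 0.818) and a log2 fold change of -0.30. Col4a2 (ENSMUSG00000031503, chr8:11312805-11449287, plus strand) had 262 FPKM with PRP (259 to 265) and 417 FPKM in the control (413 to 420.4). Its ratio was 0.629 (0.620 to 0.638) and its log2 fold change -0.67, the lowest of the 10 genes, with 3.32% of the expressed genes lower still. By level, Col4a1 ranked 85 among all genes of the control library and 111 in the PRP library, and Col4a2 ranked 96 and 184. Together these chains made up 76.6% of the summed FPKM of the 10 genes in the control library and 71.8% in the PRP library.

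The type IV collagen genes did not differ by the same factor. There were 1.13 Col4a1 for each Col4a2 transcript in the control library and 1.45 in the PRP library, both as ratios of FPKM, and this proportion was 1.29 times higher with PRP (1.26 to 1.31). The interval of the change excluded 1, so the shift was larger than counting error, although the spread between cultures was not measured. The genes lie head to head on chromosome 8, and their annotated 5′ ends share 22 bases, at chr8:11312805-11312826.

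Some reads of Col4a2 could not be placed with certainty. The antisense gene Gm15419 (chr8:11399186-11417892, minus strand) lies within Col4a2 and shares 43 bases of exon with it. It had 76.3 FPKM with PRP and 125 FPKM in the control, a ratio of 0.610 (0.565 to 0.658) whose interval includes the ratio of Col4a2. Gm15419 had 2273 reads with PRP and 3172 in the control, against 69583 and 94136 for Col4a2. The library kit keeps the strand, but whether the counting used it was not given in the sources used here. Without strand, reads over shared bases cannot be assigned to a gene or to its antisense partner. Exons were also shared between Nid2 and Rtraf (8.45% of the Nid2 exons), between Lama2 and the antisense gene Gm48084 (3.86%) and between Nid1 and the antisense gene Gm48682 (2.06%). Rtraf, a neighbour that runs against Nid2, had 40.5 FPKM with PRP and 48.8 FPKM in the control, far above the level of Nid2 itself.

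Lama2 and Lama4 encode laminin alpha chains, which carry the sites that bind integrins and dystroglycan. Lama2, the alpha chain of the muscle fibre basement membrane, whose loss causes congenital muscular dystrophy, lies at chr10:26980036-27619758 on the minus strand (ENSMUSG00000019899). It had 9.34 FPKM with PRP (9.01 to 9.67) and 13.9 FPKM in the control (13.4 to 14.3), a ratio of 0.673 (0.642 to 0.705). This was the lowest ratio among the 5 laminins of the 10 genes, with a log2 fold change of -0.53. Of the laminin genes outside these 10, Lama3 had a lower ratio, 0.158 (0.0843 to 0.276), as did Lama1, 0.486 (0.104 to 1.91). Both were below 1 FPKM in both libraries. Lama4, the alpha chain best known from vessels and fat tissue (ENSMUSG00000019846, chr10:38965515-39110188, plus strand), had 4.64 FPKM with PRP and 5.80 FPKM in the control. Its ratio was 0.8004 (0.737 to 0.869). There were 2.01 Lama2 for each Lama4 by FPKM with PRP and 2.39 in the control library, so that this proportion was 0.841 times the control value (0.764 to 0.924).

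The laminin beta chains went in different directions. Lamb1, a widespread beta chain (ENSMUSG00000002900, chr12:31265234-31329644, plus strand), had 24.7 FPKM with PRP and 23.6 FPKM in the control. The ratio was 1.05 and its interval, 1.01 to 1.09, barely excluded 1. With each library rescaled to a common sum of FPKM this interval included 1. Lamb2, the beta chain concentrated at the neuromuscular junction and in the kidney filter (ENSMUSG00000052911, chr9:108479736-108490530, plus strand), had 30.0 FPKM with PRP and 37.7 FPKM in the control. Its ratio was 0.796 (0.761 to 0.833). By FPKM, Lamb2 was thus the more abundant beta chain in both libraries. There were 0.825 Lamb1 for each Lamb2 with PRP against 0.626 in the control. Reads not divided by exon length put Lamb1 ahead, at 1.34 for each Lamb2 with PRP and 1.02 in the control. Which chain led therefore depended on the exon lengths, which were 9917 bases for Lamb1 and 6082 for Lamb2. This proportion was 1.32 times higher with PRP (1.24 to 1.40).

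Lamc1 encodes the gamma chain shared by most laminins (ENSMUSG00000026478, chr1:153218922-153332786, minus strand) and was the most abundant laminin gene. It had 90.7 FPKM with PRP (89.3 to 92.2) and 106 FPKM in the control (104 to 107), a ratio of 0.858 (0.839 to 0.878). By FPKM, Lamc1 therefore exceeded the sum of Lama2 and Lama4 by 6.49-fold in the PRP library and 5.37-fold in the control library. These factors depend on the exon lengths, which were 8272 bases for Lamc1, 16605 for Lama2 and 12068 for Lama4. With PRP the reads were 30101 for Lamc1, 6221 for Lama2 and 2248 for Lama4. In the control they were 29848, 7868 and 2390. For each Lamc1, Lamb1 and Lamb2 together came to 0.603 with PRP and 0.579 in the control. Counting every annotated laminin alpha gene, the summed FPKM was 15.03 with PRP and 21.3 in the control, and the beta chains summed to 54.9 and 61.3. Alpha chain mRNA was therefore scarcer than beta chain mRNA, and than Lamc1 alone, in both libraries.

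**Figure D3:**
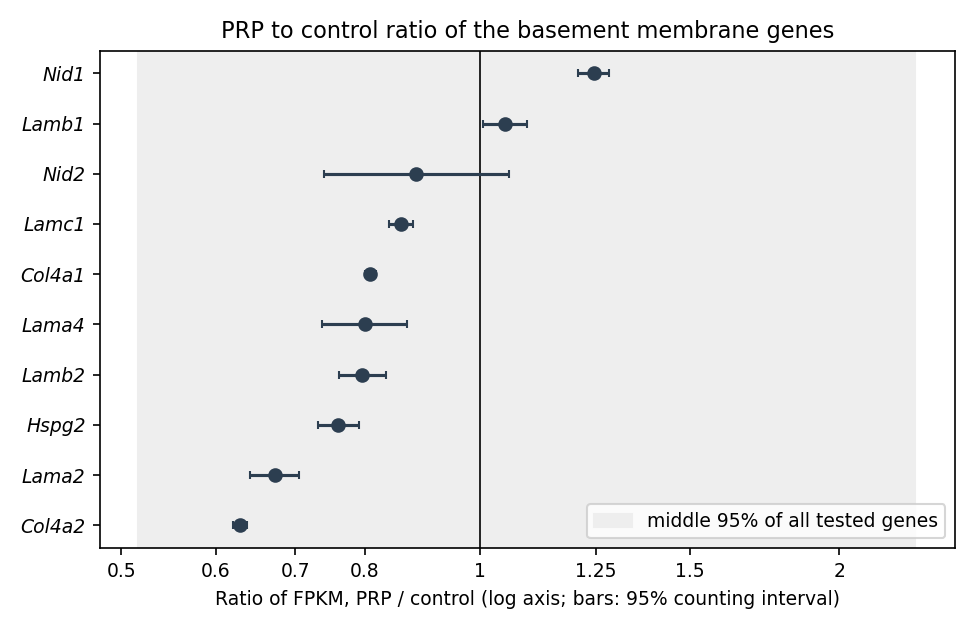
Ratio of FPKM with PRP to that in the control library for each gene, on a log axis, with bars for the 95% counting interval. The grey band holds the middle 95% of all expressed genes, from 0.516 to 2.32, and all 10 genes lie inside it, from Col4a2 at 0.629 to Nid1 at 1.24.

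Nid1 was the gene of this group with a clearly higher level in the PRP library. It encodes nidogen 1, the linker that binds the laminin gamma chain and type IV collagen (ENSMUSG00000005397, chr13:13437551-13512269, plus strand). Its level was 74.7 FPKM with PRP (73.3 to 76.2) and 60.03 FPKM in the control (58.6 to 61.4). The ratio was 1.24 (1.21 to 1.28) and the log2 fold change 0.31, a value that 83.1% of the expressed genes stayed below. Nid2, the related linker (ENSMUSG00000021806, chr14:19751265-19811787, plus strand), had 2.46 FPKM with PRP and 2.79 FPKM in the control. Its ratio of 0.884 had an interval of 0.739 to 1.06, so that a difference was not detectable at this depth of 511 and 492 reads. There were 30.4 Nid1 for each Nid2 with PRP and 21.6 in the control, a proportion 1.41 times higher with PRP (1.18 to 1.69). For each Lamc1, its binding partner, both nidogens together came to 0.851 with PRP and 0.594 in the control library.

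Hspg2 encodes perlecan, the large heparan sulphate proteoglycan that binds growth factors and nidogen (ENSMUSG00000028763, chr4:137468769-137570630, plus strand). It had 15.8 FPKM with PRP and 20.7 FPKM in the control, a ratio of 0.760 (0.731 to 0.791) and a log2 fold change of -0.37. The amount of perlecan mRNA for each Lamc1 was 0.174 with PRP and 0.196 in the control library.

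**Figure D4:**
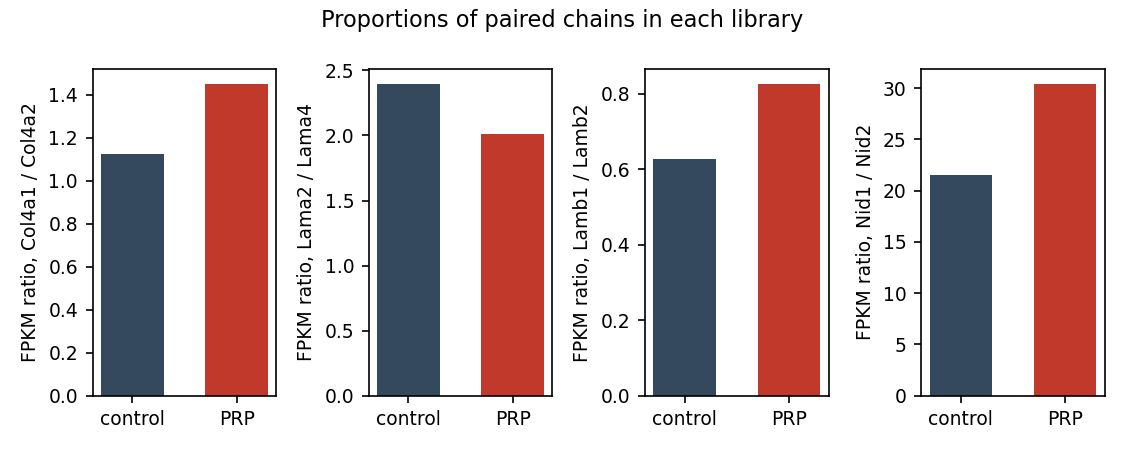
Proportion of paired basement membrane genes within the control library (dark bars) and the PRP library (red bars), as a ratio of FPKM on axes that start at 0, 1 library per bar and therefore no error bars. Col4a1 to Col4a2 went from 1.13 to 1.45, Lama2 to Lama4 from 2.39 to 2.01, Lamb1 to Lamb2 from 0.626 to 0.825 and Nid1 to Nid2 from 21.6 to 30.4.

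Of the remaining basement membrane chains, only 5 of 13 listed genes were expressed, and the other 8 were below 1 FPKM in both libraries. Col4a5, a type IV collagen chain of the kidney and smooth muscle, had 10.96 FPKM with PRP and 14.6 FPKM in the control, a ratio of 0.753 (0.701 to 0.808) that lay between those of Col4a1 and Col4a2. Col18a1, the source of endostatin, was lower as well, with 3.83 and 5.32 FPKM (0.641 to 0.809 for the ratio). Lama5 had 0.959 and 1.15 FPKM with an interval that included 1. Agrn, which encodes the proteoglycan agrin that clusters acetylcholine receptors at synapses, was 1.55 times higher with PRP (1.31 to 1.84), from 1.35 to 2.09 FPKM.

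Proteins that fold, modify, export and crosslink collagen were lower in the PRP library in 16 of the 19 expressed genes of 20 listed. Their median log2 fold change was -0.28, beside -0.29 for the 10 basement membrane genes. The interval lay below 1 in 13 and above 1 in 1 of the 18 with whole reads. Over all expressed genes with whole reads these shares were 26.0% and 26.4%, not matched for reads per gene. Sec23a, a coat protein of the vesicles that carry collagen out of the endoplasmic reticulum, was the only one past 2-fold lower, with 5.93 FPKM with PRP and 14.9 FPKM in the control. Its ratio was 0.398 (0.360 to 0.440). Loxl2, which crosslinks type IV collagen, had 25.5 and 37.7 FPKM, a ratio of 0.675. Plod2, a lysyl hydroxylase of collagen, had 9.99 and 14.5 FPKM, a ratio of 0.687.

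Among proteins bound to basement membranes, 6 of the 8 expressed genes of 17 listed were lower with PRP, and the median log2 fold change was -0.24. Efemp1, a fibulin, had 40.0 FPKM with PRP and 58.8 FPKM in the control, a ratio of 0.680. Ntn4, a netrin that binds laminin and interferes with its polymerisation, was higher, at 17.2 against 11.8 FPKM and a ratio of 1.45 (1.33 to 1.59). Ntn1 had 1.45 and 2.18 FPKM.

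Of the basement membrane receptors, 8 of the 10 expressed genes of 19 listed were lower and the median log2 fold change was -0.12. The largest difference was that of Dag1, which encodes dystroglycan, a receptor of the Lama2 chain, with 15.1 FPKM with PRP and 21.2 FPKM in the control, a ratio of 0.713 (0.671 to 0.758). Sgcb, a sarcoglycan of the same receptor complex, had 7.68 and 10.5 FPKM, a ratio of 0.728. The heparan sulphate receptor Sdc2 had a ratio of 0.780, from 39.7 FPKM in the control to 31.0 with PRP.

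Enzymes that cut type IV collagen and laminin, and their inhibitors, divided evenly, with 5 higher and 5 lower among the 10 expressed genes of 12 listed. The median log2 fold change was -0.0022. Mmp3, stromelysin, which cleaves laminin, nidogen and perlecan core protein, had 30.6 FPKM with PRP and 9.89 FPKM in the control. Its ratio of 3.09 (2.72 to 3.52) was the only one past 2-fold in that list. Mmp10, a close relative, had 4.79 and 2.57 FPKM, a ratio of 1.87 (1.41 to 2.48). Mmp2, a gelatinase that cuts type IV collagen, was lower, with 79.6 FPKM with PRP and 117 FPKM in the control, a ratio of 0.678.

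The collagens of the interstitial matrix were mostly lower as well. The fibrillar collagens had a median log2 fold change of -0.67 over 8 expressed genes, of which 6 were lower, and the 3 expressed collagen VI genes one of -0.98. Col3a1 had 26.9 FPKM with PRP and 53.7 FPKM in the control, and Col1a1 had 119 and 219 FPKM. Col11a1 had a ratio of 0.534. The higher ones were Col5a2, the most abundant fibrillar collagen, with 433 and 386 FPKM (1.11 to 1.13 for the ratio), and Col11a2, with 3.35 and 2.55 FPKM. Summed over the fibrillar list, the FPKM was 778 with PRP and 978 in the control. Col6a1 had a ratio of 0.413, Col6a2 of 0.469 and Col6a3 of 0.501, and each of these intervals lay below that of Col4a2, the lowest of the basement membrane genes. Since each group had a single library, whether these lists differ from one another was not tested.

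**Figure D5:**
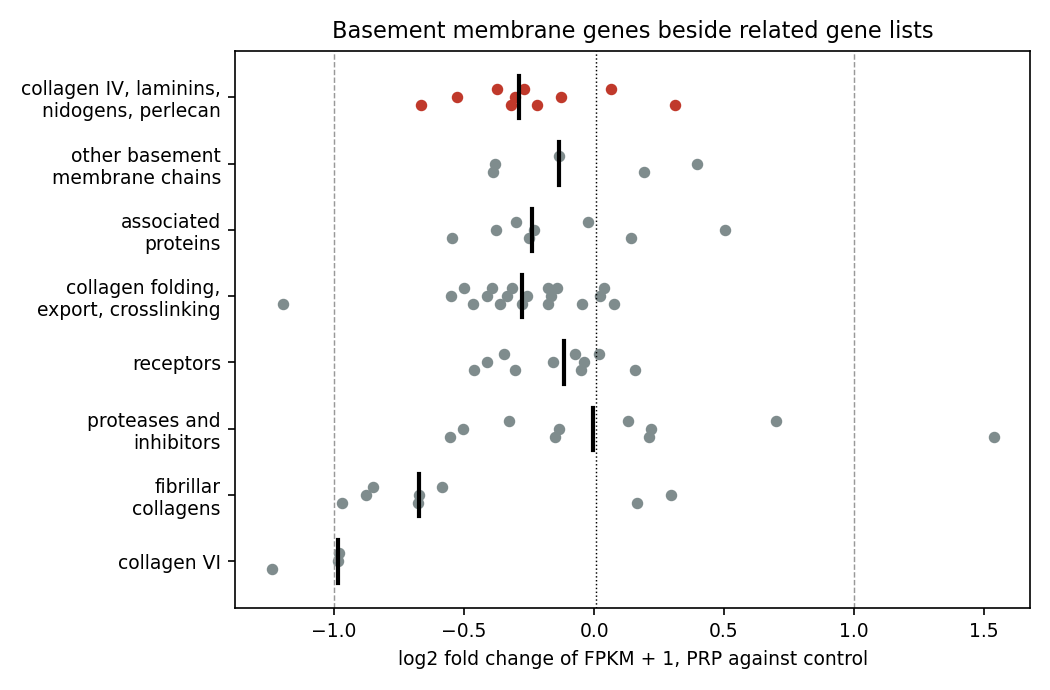
Log2 fold change of FPKM + 1, PRP against control, for every expressed gene of each list, with 1 point per gene and a black bar at the list's median. The 10 basement membrane genes (red) spread from -0.67 to 0.31 around a median of -0.29, between the dashed lines at 2-fold, while the collagen VI genes lie near or past the lower line. The dotted line marks the median of all expressed genes at 0.01.

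Most markers of FAPs were present in the cultures, at lower levels in the PRP library. Of 10 FAP markers, 9 were expressed and all 9 were lower with PRP, with a median log2 fold change of -0.44 and a summed FPKM of 533 against 817. The surface markers were Pdgfra, with 19.8 FPKM with PRP and 28.0 in the control, Pdgfrb (68.5 and 88.7 FPKM), Ly6a (59.9 and 66.4 FPKM), Cd34 (4.76 and 6.10 FPKM) and Thy1 (156 and 212 FPKM). The matrix and secreted ones were Dcn (7.54 and 8.36 FPKM), Gsn (79.6 and 139 FPKM), Col1a1 and Dpt, which was past 2-fold lower at 18.8 and 50.2 FPKM. The tenth marker, Lum, was near 0 in both libraries at 0.0815 and 0.0718 FPKM. The part of this shift in the lower levels of the basement membrane genes was not tested. Adipocyte markers summed to 74.8 FPKM with PRP and 64.2 in the control library, with 5 of 7 expressed genes higher. The lower ones, named after their values were seen, were Lipe (1.51 and 2.01 FPKM) and Plin1 (1.73 and 2.10 FPKM). The ratio had an interval of 0.611 to 0.924 for Lipe and of 0.659 to 1.03 for Plin1. Fabp4 had 40.7 and 33.6 FPKM, Pparg had 8.69 and 6.55 FPKM, Cebpa had 13.5 and 12.2 FPKM and Adipoq had 5.49 and 5.22 FPKM, with intervals above 1 for Fabp4 and Pparg and including 1 for Cebpa and Adipoq.

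Markers of other cell types were at varied levels, several of them at 0 in both libraries. Of the 10 endothelial markers, 8 were below 1 FPKM in both libraries, Cldn5 was at 0 in both, and the list summed to 10.1 FPKM with PRP and 6.05 in the control library. The expressed ones were Kdr, at 4.23 and 1.499 FPKM, and Tek, at 4.73 and 3.56 FPKM, both higher with PRP and named after their values were seen. Pericyte and smooth muscle markers summed to 44.1 and 37.1 FPKM, and Higd1b was at 0 in both. Of these, the contractile genes Myh11 (16.7 and 9.86 FPKM) and Cnn1 (15.9 and 9.36 FPKM) were higher and Ndufa4l2 (6.37 and 11.98 FPKM) was lower. The other expressed ones, Des (2.91 and 3.39 FPKM) and Cspg4 (0.932 and 1.08 FPKM), were lower with intervals of the ratio that included 1. Myogenic markers summed to 22.8 and 18.8 FPKM, with Acta1 at 15.1 and 11.1 FPKM and with Pax7 and Myog at 0 in both libraries. Schwann cell markers summed to 7.34 and 8.53 FPKM, most of it Cnp at 5.86 and 5.64 FPKM, and Gfra3 was at 0. S100b, the other expressed one, was lower, at 0.739 and 2.29 FPKM (0.188 to 0.535 for the ratio). Macrophage markers summed to 11.3 and 11.2 FPKM, with Lyz2 at 4.91 and 7.57 FPKM. Cd68, the other expressed one, was higher, at 4.56 and 2.31 FPKM (1.41 to 2.82 for the ratio). Des, Cspg4, S100b and Cd68 were named after their values were seen. The part of these cell types in the differences of the basement membrane genes was not tested.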

How the data were processed

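TRIzol-extracted RNA went into a strand-specific mRNA library kit. The authors trimmed reads with fastp 0.23.4, aligned them to mm10 with STAR 2.5.3a, counted them with featureCounts and deposited FPKM for 1 PRP and 1 control library. The annotation release and the step from counts to FPKM were not given in the sources used here. The values were matched to GENCODE M21 by gene identifier. Multiplying FPKM by M21 exon length gave whole reads (within 0.001 reads) in both libraries for 93.8% of 28160 genes. Those of Lama2 and Hspg2 came from the ratio of their values, with exon lengths of 16605 and 14739 bases in place of 16338 and 14307. Even read numbers were in excess (79.3% and 80.3% of genes with 1 to 8 reads), so mates were probably counted separately and Clopper-Pearson 95% intervals used reads divided by 2. No test for counts was run. Fold changes used a pseudocount of 1 and a mean FPKM of at least 1. The procedure was checked on simulated data.

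All 10 genes were named, as were every expressed gene of the other chains, the 3 genes with the largest absolute log2 fold change and any past 2-fold in each further list, and markers with a mean FPKM of at least 5. Some further genes outside these rules were named after their values were seen. The genes and lists were chosen with earlier results of these data known. The marker Myf5 was not analysed here, and 1 expressed gene of the other chains is not reported here. The alternatives tried were other pseudocounts, filters, scalings and fold thresholds, the removal of genes sharing exons, intervals on reads, proportions without length, and a shorter seed match. Python 3.11.15, NumPy 2.4.6, pandas 2.3.3, SciPy 1.17.1 and matplotlib 3.10.9 were used.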

Additional observations from a re-analysis of the deposited data

How the results depend on the processing

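No paired analysis was possible because of the single library in each group, and for the same reason no library could be left out. Each of the 10 basement membrane genes kept its direction under every alternative that gave a value, with Col4a2 between -0.70 and -0.66 and Nid1 between 0.28 and 0.32 on the log2 scale. Lamb1 stayed between 0.04 and 0.07, but its interval included 1 when libraries were rescaled to a common sum or rescaled without mitochondrial and the 50 most abundant genes, so that the interval lay above 1 for 1 gene, Nid1, in place of 2. Scaling moved the median of all expressed genes only to between -0.02 and 0.01. Over all expressed genes, 268 were higher and 111 lower past 2-fold. These counts were 471 and 268 with a pseudocount of 0.1, and 84 and 29 with one of 5. They were 154 and 56 with a filter at a mean FPKM of 5, and 23 and 3 past 4-fold. With a common sum they were 380 and 216, and without the mitochondrial and top genes 391 and 247. The median of the proteolysis list changed sign from -0.0022 to 0.00084 with a pseudocount of 0.1 and was -0.14 with a filter at a mean FPKM of 5. With no filter, the median of the associated proteins was -0.02 in place of -0.24 and that of collagen VI -0.51 in place of -0.98. With a seed match of 6 in place of 7 bases, 4 of the 10 genes matched let-7f-5p, 5 matched miR-16-5p and 6 matched miR-29a-3p, beside 25.5%, 45.3% and 33.6% of the expressed genes. Among the 10 genes, depth limited the comparison of Nid2, whose interval included 1.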

Other observations

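The integrin alpha chains that bind laminin and type IV collagen were scarce beside their common beta chain, and their values were named after they were seen. Of the 5 listed alpha chains, Itga1, Itga2, Itga6 and Itga7 were under the limit for the comparisons above. Itgb1 had 244 FPKM with PRP and 253 FPKM in the control. Among the alpha chains, Itga3 had 1.70 and 1.77 FPKM, Itga1 had 0.619 and 0.472 FPKM, and Itga2 had 0.419 and 0.370 FPKM. Itga6, a laminin receptor chain, had 0.793 FPKM with PRP and 0.362 FPKM in the control, an interval of 1.60 to 3.03 for the ratio. Itga7, the laminin receptor chain of muscle fibres, went the other way, with 0.662 and 1.16 FPKM and an interval of 0.444 to 0.735.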
